A study of Mus musculus with 4 samples.

Results

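The genes described here are 10 genes of regulatory T cells (Treg cells), chosen by symbol from the 32285 genes in the files: Foxp3, Il2ra, Ikzf2, Ikzf4, Itgb8, Areg, Il1rl1, Ccr8, Penk and Il10. Raw counts of unique molecular identifiers (UMIs, one per captured RNA molecule) were summed per library over T cells with at least 1 Foxp3 UMI and over the other T cells. The study took CD45+ leukocytes, sorted by flow cytometry, from tumours that grew under the skin of 8-week-old mice after injection of MC38, a mouse colorectal tumour line. The groups were WT mice and mice labelled Trim25 cKO, with 2 libraries each, numbered as in the labels (WT-1 and WT-2; cKO-1 and cKO-2). Where 4 values follow each other below, the 2 WT libraries come first and each genotype is in the order of its numbers. The series title places the ablation of Trim25, a ubiquitin ligase, in T cells, and the sources used here name no Cre line. The labels name the tissue colon and the cell type colorectal tumour line, whereas the libraries held leukocytes.

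Treg cells restrain other lymphocytes, and Foxp3 is the transcription factor that defines them. They take up interleukin-2 through a receptor whose high-affinity chain is Il2ra (CD25), and they carry the Ikaros-family factors Helios (Ikzf2) and Eos (Ikzf4). Treg cells of non-lymphoid tissues and tumours are known for effector and repair genes, among them the integrin chain Itgb8, the growth factor amphiregulin (Areg), the IL-33 receptor Il1rl1 (ST2), the chemokine receptor Ccr8, the opioid precursor proenkephalin (Penk) and the cytokine Il10.

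The 3 windows below, each of 250 bases upstream of a RefSeq start site (mouse build GRCm38.p6, plus strand), are shown for members of different roles, the lineage factor Foxp3 and the tissue members Areg and Il1rl1, whose UMIs were found together in cells. Promoters were found for 6 of the 10 members, with a second window each for Foxp3 and Il1rl1, and only the windows that held a match are shown; the second windows and those of Il2ra, Itgb8 and Ccr8 held none. The capitals mark matches, on either strand, to the motifs searched.
Areg promoter, chr5:91139349-91139598: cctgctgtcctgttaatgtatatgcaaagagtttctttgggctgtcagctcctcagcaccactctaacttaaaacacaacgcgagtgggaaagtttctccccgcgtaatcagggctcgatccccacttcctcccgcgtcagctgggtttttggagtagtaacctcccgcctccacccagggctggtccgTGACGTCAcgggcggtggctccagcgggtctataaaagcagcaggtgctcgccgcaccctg
Foxp3 promoter, chrX:7580233-7580482: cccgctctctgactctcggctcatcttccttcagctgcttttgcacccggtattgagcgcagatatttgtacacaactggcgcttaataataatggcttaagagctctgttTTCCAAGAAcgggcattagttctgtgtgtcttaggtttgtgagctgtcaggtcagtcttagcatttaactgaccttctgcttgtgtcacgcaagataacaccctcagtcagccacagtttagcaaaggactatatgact
Il1rl1 promoter, chr1:40439379-40439628: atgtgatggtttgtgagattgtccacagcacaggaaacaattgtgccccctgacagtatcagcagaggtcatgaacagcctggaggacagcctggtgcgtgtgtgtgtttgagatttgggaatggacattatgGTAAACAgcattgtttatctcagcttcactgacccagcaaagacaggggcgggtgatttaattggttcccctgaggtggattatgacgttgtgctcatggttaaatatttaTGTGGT
The Areg window held the cyclic-AMP response motif TGACGTCA 61 bases before the start, a motif found in 1.55% of 32851 promoter windows of this length. The Foxp3 window, which lies inside the annotated span of the gene, held TTCCAAGAA, a match to the STAT motif TTCNNNGAA, 139 bases before the start (7.02% of windows). The Il1rl1 window also lies inside the span of its gene. It held GTAAACA, the forkhead motif TGTTTAC on the other strand, 117 bases before the start (3.17% of windows) and the RUNX motif TGTGGT 6 bases before it (14%). The AP-1 motif TGANTCA, present in 6.75% of windows, had no match in the members' windows. These matches describe letters only, and binding was not measured.

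In GRCm38 the members lie on 8 chromosomes: Foxp3 at chrX:7573644-7595245, Il2ra at chr2:11642807-11693193, Ikzf2 at chr1:69531214-69687245, Ikzf4 at chr10:128630843-128645991, Itgb8 at chr12:119158022-119238802, Areg at chr5:91139599-91148432, Il1rl1 at chr1:40429570-40465415, Ccr8 at chr9:120092114-120094906, Penk at chr4:4133531-4138819 and Il10 at chr1:131019845-131024974. All are protein-coding genes. Several overlap other annotated genes. The antisense RNA Gm29114 at Ikzf2 lies on the other strand and had 782 UMIs in Foxp3-positive cells. Flicr at Foxp3 lies on the same strand and had 0 there. The part of such overlaps in the counts was not tested.

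The libraries held 8533 to 12318 barcodes and 96751399 to 127449324 UMIs, and 39906 cells passed the filters. Any pair of libraries shared 42 to 59 barcodes. Of 4944 T cells, 571 were Foxp3-positive (138 in WT-1, 183 in WT-2, 112 in cKO-1 and 138 in cKO-2) and 4373 had no Foxp3 UMI. Of the latter, 1918 also had no Cd8a or Cd8b1 UMI and are called Foxp3-zero Cd8-negative T cells, the nearer of the 2 comparison classes to conventional CD4 T cells. The Foxp3-positive sums held 1120616 to 1630548 UMIs per library. Trim25 stood at 80.3 and 65.6 CPM (counts scaled to the summed UMIs of the class in that library) in the Foxp3-positive cells of the WT libraries and at 58.1 and 62.0 in those of the cKO libraries (log2 fold change -0.26 ± 0.22 SE, edgeR adjusted p = 0.994). Because 3' counts can lie outside a deleted part of a gene, this value does not check the genotype labels. The labels do not state whether 1 animal or several gave the libraries of a genotype, and p-values therefore take in only how these libraries varied, a variation that may be technical.

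The Foxp3-positive cells carried the Treg markers. The 4 markers of that class other than Foxp3, which sorted the cells, were Ctla4, Tnfrsf18, Tnfrsf4 and Izumo1r, and they summed to 2548 to 3105 CPM across libraries, against 751 to 954 CPM in Foxp3-zero Cd8-negative T cells. When T and NK cells were clustered with the members left out of the genes used, 489 of the 571 cells (85.6%) fell in a single Treg-like cluster and 34 (5.95%) in a cluster of conventional CD4 T cells. Of the 735 T cells of the Treg-like cluster, 66.5% had a Foxp3 UMI. Markers of mast cells and basophils were all at 0 in Foxp3-positive cells (4 of 4 genes), macrophage markers summed to 752 to 1076 CPM, and NK markers to 40.8 to 199 CPM. The same macrophage markers summed in Foxp3-zero Cd8-negative T cells to 874 to 1276 CPM, and the NK markers to 344 to 480 CPM. Markers of type 2 innate lymphoid cells, a list that holds Gata3 and Rora, summed to 676 to 936 CPM in Foxp3-positive cells. In Foxp3-zero Cd8-negative T cells they summed to 534 to 802 CPM, and WT-1 held 134 Il13 and 42 Il5 UMIs there. The part of these RNAs in the results was not tested. Gamma-delta T cell markers summed to 22.6 to 43.5 CPM in Foxp3-positive and to 290 to 479 CPM in Foxp3-zero Cd8-negative T cells, which thus held such cells too. Median depth was 7051 UMIs per Foxp3-positive cell and 5323 per Foxp3-zero Cd8-negative cell. It differed by genotype. Foxp3-positive cells had medians of 6186.5 and 6568 UMIs in the WT libraries and 8544 and 9357 in the cKO libraries. Foxp3-zero Cd8-negative cells had 5207 and 4892.5 in WT and 6128 and 5477 in cKO. In both classes the genotypes did not overlap.

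All 9 members other than Foxp3 were higher in Foxp3-positive cells than in the other T cells, in each of the 4 libraries. Against Foxp3-zero Cd8-negative T cells the largest differences were those of Itgb8 (log2 2.85 ± 0.17 SE), Il2ra (2.54 ± 0.08) and Areg (2.21 ± 0.23), and the smallest that of Penk (1.24 ± 0.31). Foxp3 itself sorted the cells and was not tested. By edgeR's quasi-likelihood test with Benjamini-Hochberg adjustment over all genes, all 9 passed at an adjusted p under 0.05 against all Foxp3-zero T cells, where 28.8% of 11193 genes were called and 15% were called higher, 13.8% lower. All 9 also passed against Foxp3-zero Cd8-negative T cells, where 23.7% of 9618 genes were called and 11.6% called higher. The members' median log2 fold change was 2.96 in the first comparison and 1.96 in the second, beside -0.02 and -0.01 over all genes tested. The 2 comparisons share their Foxp3-positive cells. Penk in both comparisons and Ccr8 in the second reached the filter on low counts only through the Foxp3-positive cells, since 3 of the 4 libraries of the other class reached it. Higher values in all 4 libraries were found for 23.7% of genes in the first and 22.4% in the second. The members were chosen as Treg genes, so their direction here is a description of the class.

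Foxp3 stood at 336, 335, 320 and 332 CPM in Foxp3-positive cells of the 4 libraries (mean 331 ± 7.32 SD, n = 4). These are the values that defined the class, and they lay close together in both genotypes.

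Il2ra, the high-affinity IL-2 receptor chain, stood at 1084, 871, 798 and 915 CPM in Foxp3-positive cells. The other class, Foxp3-zero Cd8-negative T cells, had 209, 166, 121 and 126 CPM. The classes did not overlap, and the ratio was 5.19 to 7.24 within libraries (log2 2.54 ± 0.08, edgeR adjusted p = 1e-11). Ikzf2, which encodes Helios, was the most abundant member, with 4585, 4094, 3843 and 3948 CPM in Foxp3-positive cells. Its level in Foxp3-zero Cd8-negative T cells was 1125, 1013, 1082 and 1304 CPM. Here too the classes did not overlap (log2 1.83 ± 0.06, edgeR adjusted p = 2.4e-11). The level of the second class is that of a mixture, which takes in Foxp3-zero cells of the Treg-like cluster. Ikzf2 in those cells and in the cluster of conventional CD4 T cells is given below. Ikzf4, which encodes Eos, was even across libraries at 127, 119, 118 and 129 CPM in Foxp3-positive cells. It stood at 42.3, 27.0, 22.3 and 30.8 CPM in Foxp3-zero Cd8-negative T cells (log2 1.99 ± 0.13, edgeR adjusted p = 1.8e-08). No library of one class reached a library of the other.

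Itgb8, the integrin chain that pairs with Itgav to activate latent TGF-beta, stood at 267, 275, 317 and 302 CPM in Foxp3-positive cells. The values in Foxp3-zero Cd8-negative T cells were 52.6, 38.1, 19.9 and 48.4 CPM. Against all Foxp3-zero T cells, at 7.10 to 18.9 CPM, Itgb8 had the largest difference of any member (log2 4.47 ± 0.16, edgeR adjusted p = 1.76e-13). Its partner Itgav also rose (log2 1.85 ± 0.09 against Foxp3-zero Cd8-negative T cells, edgeR adjusted p = 2.96e-10).

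Il10, an inhibitory cytokine, stood at 303, 172, 115 and 251 CPM in Foxp3-positive cells and at 66.0, 41.3, 17.7 and 97.7 CPM in Foxp3-zero Cd8-negative T cells. The lowest Foxp3-positive value, in cKO-1, was above the highest of the other class, in cKO-2 (log2 1.96 ± 0.15, edgeR adjusted p = 7.79e-08). Areg, an EGF-family growth factor linked to tissue repair, stood at 159, 135, 269 and 165 CPM in Foxp3-positive cells. It stood at 38.6, 30.2, 21.3 and 64.7 CPM in Foxp3-zero Cd8-negative T cells (log2 2.21 ± 0.23, edgeR adjusted p = 2.21e-06). The classes did not overlap, although cKO-1 was well above the other Foxp3-positive sums.

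Il1rl1, the receptor for the alarmin IL-33, stood at 69.6, 54.0, 41.7 and 54.1 CPM in Foxp3-positive cells and at 15.9, 13.5, 11.3 and 23.3 CPM in Foxp3-zero Cd8-negative T cells (log2 1.76 ± 0.17, edgeR adjusted p = 1.28e-06). Every Foxp3-positive value was higher than every value of the other class. Ccr8, a chemokine receptor of tumour Treg cells, was the scarcest member, with 15, 27, 13 and 39 UMIs in all (13.4, 16.6, 11.3 and 25.7 CPM). Foxp3-zero Cd8-negative T cells had it at 3.96 to 6.35 CPM (log2 1.52 ± 0.30, edgeR adjusted p = 0.00117). The classes did not overlap, and cKO-2 held the highest value.

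Penk, which encodes the precursor of enkephalin opioid peptides, was the member that separated the classes least. It stood at 102, 93.2, 37.3 and 64.7 CPM in Foxp3-positive cells and at 36.7, 51.8, 35.5 and 3.52 CPM in Foxp3-zero Cd8-negative T cells. These ranges overlapped, and the ratio within libraries ran from 1.05 in cKO-1 to 18.4 in cKO-2. The difference passed the test (log2 1.24 ± 0.31, edgeR adjusted p = 0.00703), but not when Foxp3-positive cells needed at least 2 Foxp3 UMIs (1.12, adjusted p = 0.0995) nor with DESeq2 (1.49, adjusted p = 0.213).

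**Figure D1:**
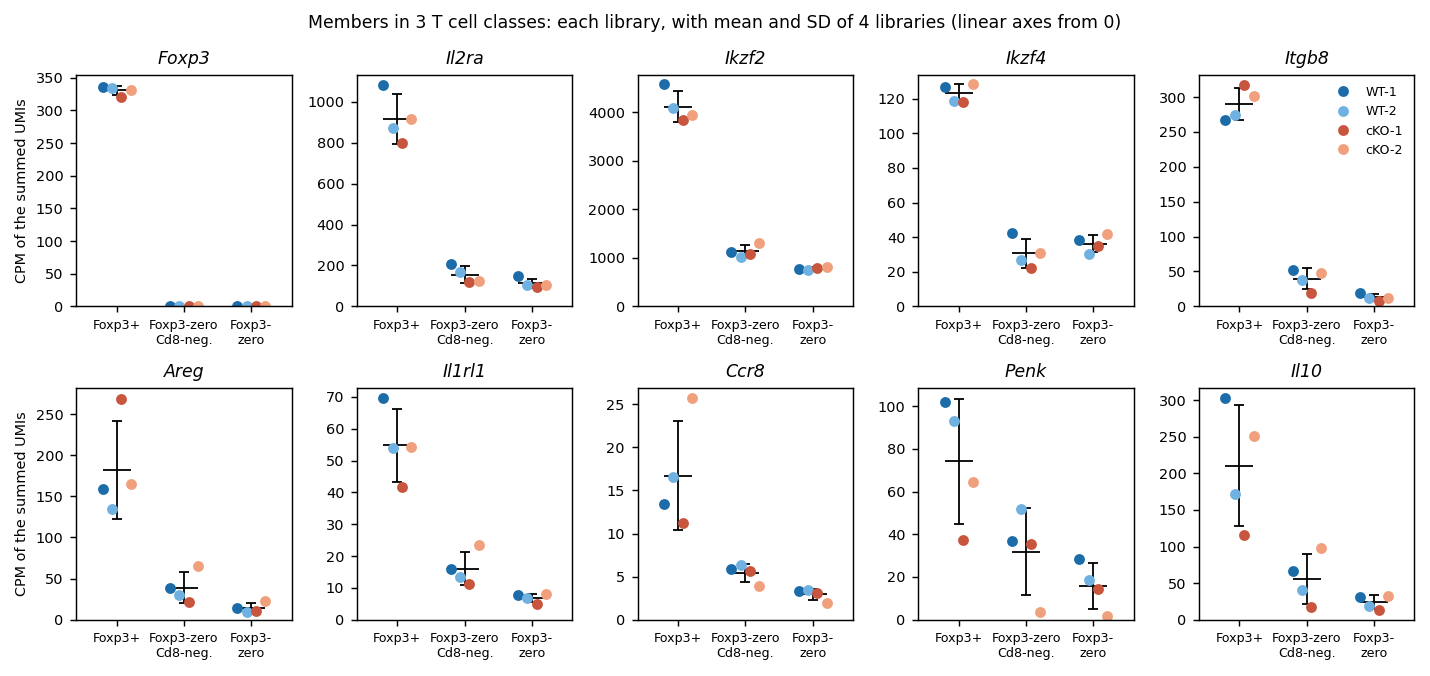
CPM of each member (vertical axes, linear and from 0) in Foxp3-positive, Foxp3-zero Cd8-negative and all Foxp3-zero T cells; points are the 4 libraries, bars the mean and bars with caps the SD. The Foxp3-positive values are clear of those of the other classes for every member except Penk. Its Foxp3-positive value in cKO-1 (37.3 CPM) lies below the Foxp3-zero Cd8-negative value in WT-2 (51.8 CPM).

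Genes of the Treg programme outside the members mostly moved with them. Of 20 other Treg genes, 19 were tested in both comparisons, and against Foxp3-zero Cd8-negative T cells 17 rose and 1 fell. Among the other Treg genes that rose were Lrrc32, which tethers latent TGF-beta at the cell surface (log2 2.49 ± 0.35), Klrg1, an inhibitory receptor of differentiated lymphocytes (2.34 ± 0.17), and the costimulatory receptors Tnfrsf4 (2.30 ± 0.09) and Tnfrsf9 (2.17 ± 0.08). Lrrc32 reached the filter on low counts only through the Foxp3-positive cells, as its UMIs in the other class were too few to test by genotype. Ikzf1, which encodes Ikaros, fell (-0.82 ± 0.07), whereas its family members Ikzf2 and Ikzf4 rose. Nt5e, the ectoenzyme CD73, stood at 0.11 ± 0.09 and did not pass.

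Among 12 transcriptional regulators of tissue Treg cells, 7 rose and 0 fell against Foxp3-zero Cd8-negative T cells (58.3%, beside 23.7% of all genes called). They were Prdm1, which encodes Blimp-1 (log2 1.82 ± 0.11), Maf (0.99 ± 0.06), Nfil3 (0.82 ± 0.17), Batf (0.66 ± 0.11), Rora (0.56 ± 0.08), Irf4 (0.52 ± 0.15) and Nfkb1 (0.24 ± 0.06). Gata3 did not pass there (-0.05 ± 0.11) but rose against all Foxp3-zero T cells (0.65 ± 0.09), a comparison in which 10 of the 12 rose and Bhlhe40 and Id2 fell. In that comparison 28.8% of all genes were called. Of 8 genes of resting Treg cells, 6 fell against Foxp3-zero Cd8-negative T cells, where 1157 of all 9618 genes tested fell. Tcf7 fell most (-3.29 ± 0.19), followed by Bach2 (-2.78 ± 0.12), Klf2 (-1.49 ± 0.12), Satb1 (-1.40 ± 0.08), S1pr1 (-1.33 ± 0.12) and Lef1 (-1.28 ± 0.09). The comparison class takes in the Foxp3-zero T cells without a Cd8 UMI of a cluster named naive-like. That cluster held 472 T cells, and Lef1 and S1pr1 were among its leading genes. The part of naive-like cells in these falls was not tested, nor was a shift away from a resting Treg state.

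Of 18 ligands, receptors and partners of the members, 15 were tested, and 2 rose and 2 fell against Foxp3-zero Cd8-negative T cells (26.7%, near the 23.7% of all genes called). Itgav and Il10ra, a chain of the IL-10 receptor (log2 0.58 ± 0.13), rose. Il2, the cytokine that Il2ra binds, fell (-2.54 ± 0.33), and so did Ccl1, a ligand of Ccr8 (-1.82 ± 0.28). Il2 had too few UMIs in Foxp3-positive cells to be tested by genotype there, and entered this comparison through the class where it is high. The other IL-2 receptor chains Il2rb (0.14 ± 0.07) and Il2rg (0.17 ± 0.07) did not pass, in contrast to the value of Il2ra. Il33, the ligand of Il1rl1, Egfr, the receptor of amphiregulin, and Oprd1, an enkephalin receptor, had too few UMIs to be tested.

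**Figure D2:**
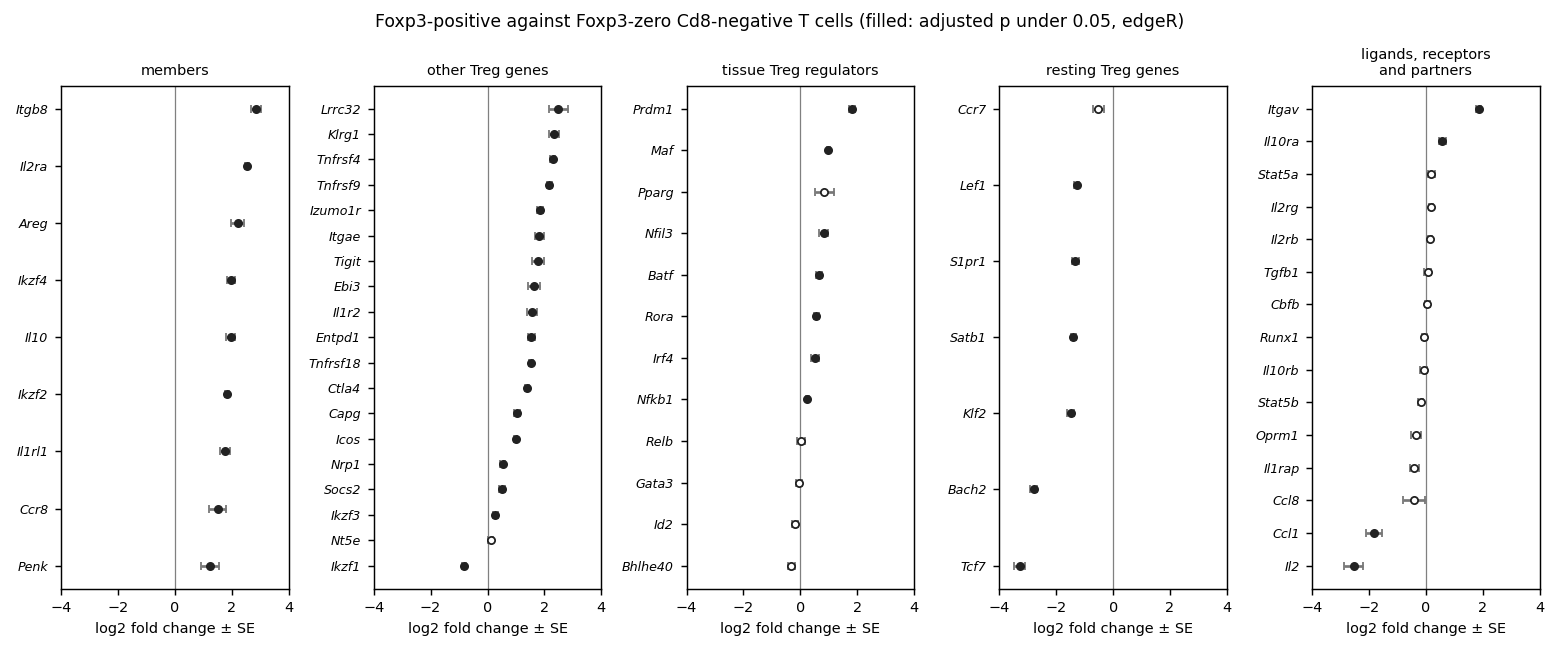
Log2 fold change ± SE (horizontal axes) of Foxp3-positive over Foxp3-zero Cd8-negative T cells for the tested members and the tested genes of 4 lists, with 1 resting Treg gene not shown, one row a gene; filled points passed an edgeR adjusted p under 0.05. The members run from 1.24 (Penk) to 2.85 (Itgb8), while most resting Treg genes lie below 0.

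The 10 genes with the largest fold against all Foxp3-zero T cells, among those that passed with 1 sign in all libraries, held 8 lower ones with 0 to 3 UMIs in Foxp3-positive cells. Such genes pass the filter on low counts only through the class where they are high, and over all genes 1676 rose and 1549 fell. Galnt18 and Spin4 had 0 UMIs in Foxp3-positive cells against 427 and 256 in the other T cells, and were at least 18.6-fold and at least 11.2-fold lower (from a floor of 3 counts over the 4 libraries). Exph5, Wdr95, Cntn1, Slc17a6, Klrb1a and Esm1 also fell, with 1 to 3 UMIs each in Foxp3-positive cells. Rln3, a relaxin-family peptide (44 UMIs against 13; log2 4.51 ± 0.57), and Ccr3, a chemokine receptor (124 against 46; 4.30 ± 0.30), rose. Rln3 and Ccr3 too reached the filter only through the class where they are high. They stood at 0.31 and 1.11 CPM in the other T cells, under the cutoff of 1.90 CPM.

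The share of cells with a UMI set the members apart from each other. After each cell was thinned to 3000 UMIs, which left out 37 of the 571 Foxp3-positive cells, Ikzf2 was detected in 93.6% of them and Il2ra in 76.6%. Itgb8 followed with 31.3%, Ikzf4 with 27.5%, Il10 with 20.4%, Areg with 18.4%, Il1rl1 with 11.99%, Penk with 7.30% and Ccr8 with 3.18%. Thinned alike, Foxp3-zero Cd8-negative T cells had shares of 40.7% for Ikzf2, 18.6% for Il2ra, 4.72% for Itgb8, 8.20% for Ikzf4, 5.71% for Il10, 3.60% for Areg, 2.92% for Il1rl1, 1.93% for Penk and 1.37% for Ccr8. Ikzf2 and Il2ra were thus detected in most Foxp3-positive cells, and Ikzf4 and the tissue members in a minority. Without thinning, the shares in Foxp3-positive cells were 94.4% for Ikzf2, 86.0% for Il2ra, 43.8% for Itgb8 and 9.98% for Penk. B cells, a type that should lack most of these genes, had a UMI in 5.58% of 1541 cells for Ikzf2, 2.34% for Il2ra, 2.14% for Il10, and between 0.065% and 0.844% for the other members, at a median of 3262.5 UMIs in their cluster. Of the 6 tissue members (Itgb8, Areg, Il1rl1, Ccr8, Penk and Il10), none was detected in 40.3% of the 534 thinned cells, 1 in 33.5%, 2 in 20.6% and 3 in 4.87%.

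Among the tissue members, the pairs Il1rl1 with Areg and Itgb8 with Il10 were detected in the same Foxp3-positive cells in every library. Among thinned cells with an Il1rl1 UMI, 39.1% of 64 had an Areg UMI, against 15.5% of the 470 cells without one. The direction held in all 4 libraries, at 43.8% against 13.4% in WT-1, 32.0% against 11.8% in WT-2, 60% against 17.2% in cKO-1 and 30.8% against 20.9% in cKO-2. Among cells with an Itgb8 UMI, 33.5% of 167 had an Il10 UMI, against 14.4% of 367, again with this direction in all 4 libraries. The 2 pairs did not share cells in the same way: Itgb8 was detected in 18.8% of cells with an Il1rl1 UMI and in 33.0% of cells without, lower in all 4 libraries. Penk was detected with Itgb8 in 3 of 4 libraries (13.2% of Itgb8-positive cells against 4.63%), and cells with a Penk UMI had Il10 less often in all 4 (10.3% of 39 against 21.2% of 495). Cells of 1 library are not replicates, and these shares are a description with no test.

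**Figure D3:**
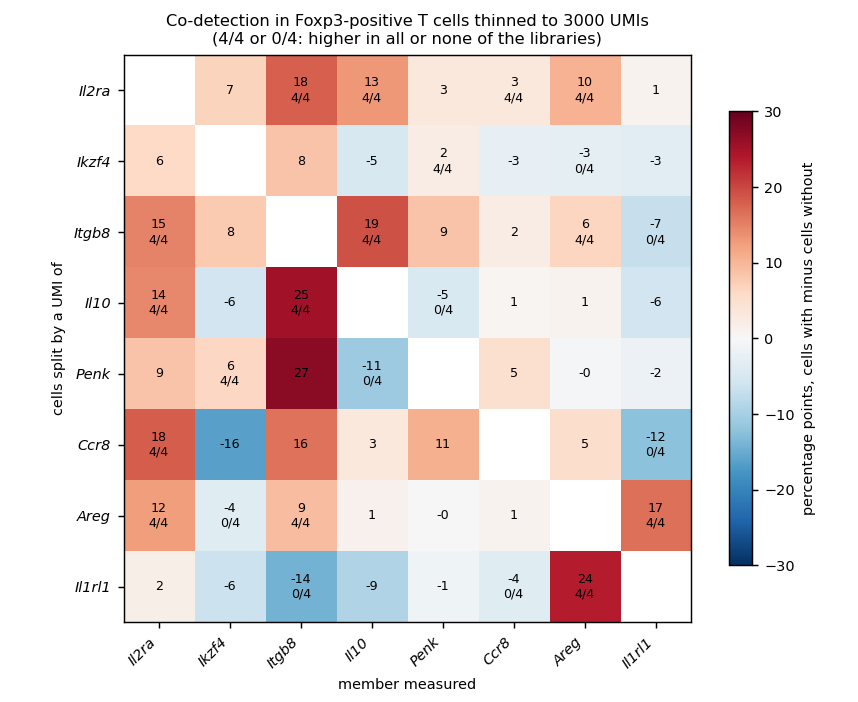
Difference in percentage points between the share of thinned Foxp3-positive cells with a UMI of one member (columns) among cells with and without a UMI of another (rows); 4/4 and 0/4 mark pairs higher in all or in none of the libraries. Il1rl1 with Areg and Itgb8 with Il10 stand out as positive in 4 of 4 libraries, and Il1rl1 with Itgb8 as negative in all 4.

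The summed counts without thinning were also split by a UMI of Il1rl1 or of Itgb8, over all 571 Foxp3-positive cells, so that the sets are larger than the thinned ones. The 108 Foxp3-positive cells with an Il1rl1 UMI had 324 CPM of Areg against 141 CPM in the 463 without. They also had more Gata3, a factor of type 2 lymphocytes (192 against 113 CPM), Rora (913 against 641 CPM) and Klrg1 (170 against 106 CPM), each higher in all 4 libraries, and less Il10 (79.4 against 241 CPM) and Maf (561 against 758 CPM), each lower in all 4. The median depth of the 2 sets was alike, at 7010.5 and 7063 UMIs.

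The 250 cells with an Itgb8 UMI had 310 CPM of Il10 against 94.2 CPM in the 321 without, 118 against 26.4 CPM of Penk and 24.6 against 9.07 CPM of Ccr8, each higher in all 4 libraries. The genes of resting cells went the other way in all 4, with Tcf7 at 7.98 against 39.0 CPM, S1pr1, the receptor for tissue exit, at 27.8 against 101 CPM, and Bach2 at 26.4 against 80.4 CPM. Il1rl1 was lower as well, at 30.2 against 82.4 CPM. Cells with an Itgb8 UMI were deeper, with a median of 9682 UMIs against 6003, and the part of depth in this split was not tested.

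Within the Treg-like cluster, cells without a Foxp3 UMI carried the members too. Its 246 T cells without a Foxp3 UMI had Ikzf2 at 4679 CPM, against 4596 in its 489 Foxp3-positive cells, Itgb8 at 312 against 339, Areg at 198 against 203, Penk at 78.9 against 83.7 and Ccr8 at 19.2 against 19.7. Il1rl1 was at 29.8 against 63.3 CPM and Il10 at 379 against 237 CPM. The 34 Foxp3-positive cells of the conventional CD4 cluster had lower levels, with Ikzf2 at 1502 CPM, Il2ra at 489, Itgb8 at 4.41, Areg at 22.0 and Il1rl1, Ccr8 and Penk at 0 UMIs. In the 805 Foxp3-zero T cells of that cluster Ikzf2 was at 202 CPM, Il2ra at 87.9, Areg at 24.0 and Il1rl1 at 24.0.

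The differences between the classes were larger with the Foxp3-zero cells of the Treg-like cluster set aside. Those cells carried most members near the Foxp3-positive level, so this direction was fixed in advance and adds no support. With these cells left out of the Foxp3-zero Cd8-negative T cells, a setting added after the data were seen, the log2 difference of Itgb8 was 6.44 ± 0.18, that of Il10 4.30 ± 0.18, that of Il2ra 3.67 ± 0.13, that of Areg 3.62 ± 0.20, that of Ikzf2 2.56 ± 0.12, that of Ikzf4 2.603 ± 0.14 and that of Ccr8 2.11 ± 0.32. Il1rl1 (1.97 ± 0.20) and Penk (1.45 ± 0.30) moved least. All 9 passed in this setting by edgeR.

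Across the cell classes of the tumour, the Treg-like cluster or the Foxp3-positive cells had the highest mean of every member except Il1rl1. Il1rl1 was highest in mast cells or basophils, at 168 ± 62.7 CPM (SD, n = 4; 117 to 260), above 54.8 ± 11.4 CPM in Foxp3-positive cells, and conventional CD4 T cells followed at 27.6 ± 19.2 CPM. Ikzf4 came second in mature dendritic cells, at 94.6 ± 14.3 CPM against 123 ± 5.37 in Foxp3-positive cells, with the PD-1-positive CD8 T cells at 56.2 ± 4.0. These ranges did not overlap.

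Il2ra, at 917 ± 122 CPM in Foxp3-positive cells, was next highest in gamma-delta T cells (333 ± 98.5) and mature dendritic cells (202 ± 75.8), whose ranges overlapped. Ikzf2, at 4117 ± 328 CPM, was followed by Ly49-positive T cells at 1249 ± 194 and cycling CD8 T cells at 772 ± 160. Itgb8 was at 32.0 ± 19.8 CPM in mature dendritic cells, against 290 ± 23.3 in Foxp3-positive cells. Areg was next highest, among the named clusters, in gamma-delta T cells at 53.5 ± 41.3 CPM, against 182 ± 59.5. The highest of these libraries, WT-1 at 108 CPM, had 24 UMIs in 1 of 37 cells, and without it the mean was 35.2 CPM.

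Among the clusters other than the Treg-like one, Penk had its highest mean in that named PD-1-positive CD8 T cells, at 31.2 ± 31.1 CPM. The libraries there ran from 4.06 to 73.4 CPM, and so overlapped those of Foxp3-positive cells (74.2 ± 29.3). The cluster held 384 Penk UMIs, in 52 of 1036 cells. All Foxp3-zero T cells with a Cd8 UMI held 244, and those without one held 422. The cluster's name therefore does not place its Penk in cells with a Cd8 UMI. Without WT-1 the mean in PD-1-positive CD8 T cells was 17.1 CPM. Ccr8 was low in all classes, with 16.7 ± 6.37 CPM in Foxp3-positive cells, 3.97 ± 1.72 in conventional CD4 T cells and 3.71 ± 0.56 in PD-1-positive CD8 T cells. Il10, at 210 ± 82.8 CPM in Foxp3-positive cells, was at 17.6 ± 6.22 in monocytes and 21.6 ± 13.1 in Gzmk-positive CD8 T cells. Of all 8289 Il10 UMIs in the filtered cells, the Treg-like cluster held 20.6%, monocytes 19.95%, mixed droplets 22.2% and Foxp3-positive cells, most of them in that cluster, 13.7%. Of 3765 Areg UMIs 25.4% were in Foxp3-positive cells, and of the Foxp3 UMIs 58.9%.

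**Figure D4:**
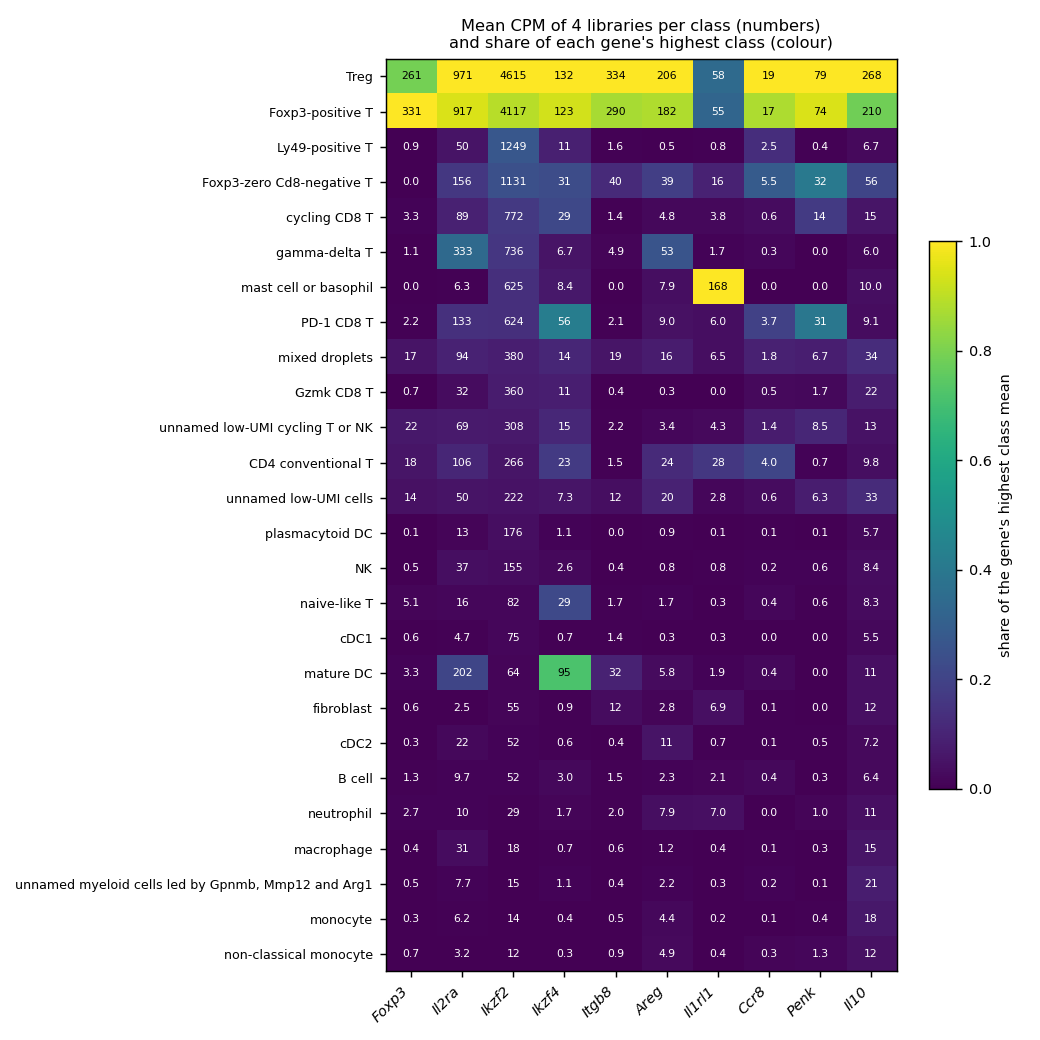
Mean CPM of 4 libraries for each member (columns) in each cell class (rows, ordered by Ikzf2), printed in each cell; colour gives the share of the gene's highest class mean. The Treg-like cluster and the Foxp3-positive cells, which overlap, hold the highest means, except for Il1rl1 in mast cells or basophils (168 CPM).

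Genes whose level across 22 cell classes ran most like that of a member were ranked by Pearson's r of log2(CPM + 1) over 11757 genes. The closest were Lrrc32 for Foxp3 (r = 0.92), Sdf4 for Il2ra (0.85) and Ccr8 (0.89), Gm29114 for Ikzf2 (0.95), Tnfrsf18 for Ikzf4 (0.88), Cep112 for Itgb8 (0.89), Ankrd6 for Areg (0.76), Alox8 for Il1rl1 (0.83), Ptpn5 for Penk (0.89) and Ky for Il10 (0.86). The next closest were Izumo1r and Sdf4 for Foxp3, Aebp2 and Crem for Il2ra, Sytl2 and Sv2c for Ikzf2, and Tnfrsf4 and Neb for Ikzf4. They were Gm13522 and Msrb3 for Itgb8, Sgip1 and Tctex1d1 for Areg, Igfbp7 and Eml2 for Il1rl1, Ncmap and Ctla4 for Ccr8, Sorcs1 and D630039A03Rik for Penk, and Lrrc32 and Nckap5 for Il10. Gm29114 is an antisense RNA that overlaps Ikzf2. The classes share libraries and differ in depth.

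The comparison of Trim25 cKO with WT asked whether the members differed by genotype within Foxp3-positive cells. Cells of the cKO libraries were deeper in this class, as given above. Apart from the setting with thinned cells, the part of depth in the gate and in these comparisons was not tested. Of the members other than Foxp3 none passed (0 of 9, where edgeR called 0.113% of 8833 genes, 0.0453% higher and 0.0679% lower), and 2 of the 9, Areg and Penk, had an unadjusted p under 0.05, as had 5.50% of all genes. DESeq2 called 3 genes, none a member. The level of Foxp3 in these cells is set in part by the gate and was not counted (-0.03 ± 0.15, log2 cKO over WT, SE). Il2ra stood at -0.18 ± 0.14, Ikzf2 at -0.15 ± 0.12 and Ikzf4 at 0.02 ± 0.18. The tissue members spread more, with Itgb8 at 0.20 ± 0.16, Il1rl1 at -0.33 ± 0.24, Ccr8 at 0.34 ± 0.39 and Il10 at -0.33 ± 0.23. The WT and cKO libraries did not overlap for Ikzf2, Itgb8, Areg and Penk (4 of 9 members, against 33.1% of all genes). Where 1 library is left out below, its genotype has 1 library, the spread comes from the pair of the other genotype alone, and the lone library is assumed to vary like that pair.

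Penk had the largest genotype difference of the members in Foxp3-positive cells, with the WT libraries at 102 and 93.2 CPM and the cKO libraries at 37.3 and 64.7 CPM (log2 -0.90 ± 0.23, unadjusted p = 0.000318 and adjusted p = 0.147 by edgeR). It passed when the Treg-like cluster replaced the Foxp3 gate (-0.94, adjusted p = 0.0227) and, against cKO-1 alone, without cKO-2 (-1.36, adjusted p = 0.0073). In cells that kept a Foxp3 UMI after thinning to 3000 UMIs (86 and 121 in WT, 81 and 91 in cKO) the difference was -0.09 ± 0.42 (adjusted p = 1.00). A larger set, the cells that were Foxp3-positive before thinning, held 128 and 169 cells in WT and 109 and 128 in cKO. In that set the share of thinned cells with a Penk UMI was 8.59% and 7.10% in WT and 6.42% and 7.03% in cKO.

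Areg had the opposite sign, with 159 and 135 CPM in WT and 269 and 165 CPM in cKO (log2 0.57 ± 0.19, unadjusted p = 0.00516 and adjusted p = 0.552 by edgeR). Without cKO-2, with cKO-1 as the lone cKO library, it was 0.89 (adjusted p = 0.0396). Il10 passed in that setting as well, at -1.01 (adjusted p = 0.0285), and changed sign without WT-1 (0.10) or cKO-1 (0.09).

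**Figure D5:**
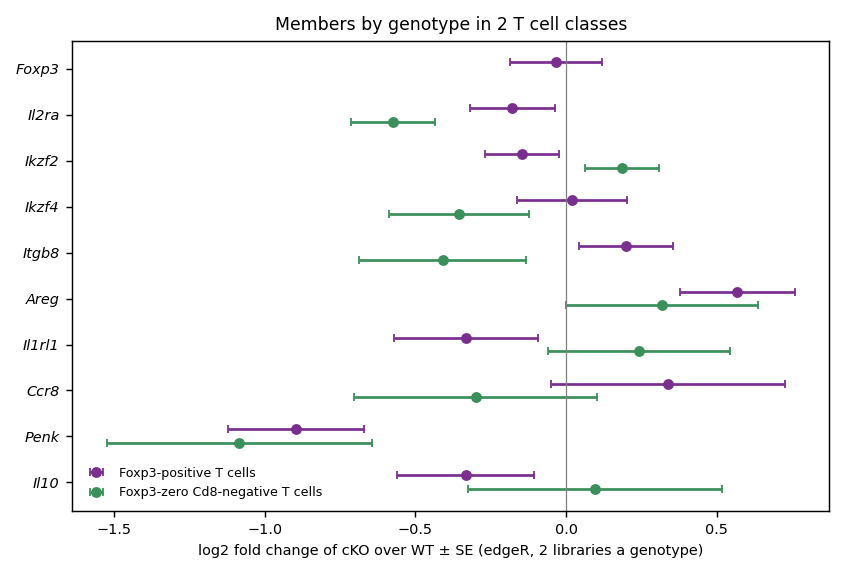
Log2 fold change ± SE (horizontal axis) of Trim25 cKO over WT for each member in Foxp3-positive and Foxp3-zero Cd8-negative T cells, 2 libraries a genotype. None of the 9 members other than Foxp3, whose level the gate set, passed the adjusted test, and Penk lies lowest in both classes (-0.90 and -1.08).

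The members did not pass in the other T cells either. In Foxp3-zero Cd8-negative T cells 0 of 9 passed, where edgeR called 0.343% of 10486 genes. An unadjusted p under 0.05 was found for 2 of the 9 and for 9.22% of all genes. One was Il2ra, with 209 and 166 CPM in WT and 121 and 126 CPM in cKO, groups that did not overlap (log2 -0.57 ± 0.14, adjusted p = 0.0994 by edgeR). It was -0.19 ± 0.24 once the Foxp3-zero cells of the Treg-like cluster were left out. The other was Penk, with 36.7 and 51.8 CPM in WT and 35.5 and 3.52 CPM in cKO (-1.08 ± 0.44, adjusted p = 0.424). Libraries of the genotypes did not overlap for 3 of the 9 members (Il2ra, Ccr8 and Penk), against 38.5% of all genes. Several of these values moved with single libraries, again with a lone cKO library whose own spread is not measured. Without cKO-1, Penk (-3.62), Areg (0.94) and Il10 (0.90) passed, and without cKO-2, Itgb8 (-1.15) and Il10 (-1.55) passed, so that the sign of Il10 depended on which of the 2 cKO libraries was kept.

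In all Foxp3-zero T cells 0 of 9 passed as well, where edgeR called 0.00813% of 12293 genes, and an unadjusted p under 0.05 was found for 2 of the 9, against 7.49% of all genes. Penk stood at 28.2 and 18.7 CPM in WT and 14.5 and 1.76 CPM in cKO (log2 -1.51 ± 0.52, adjusted p = 0.471 by edgeR), and Itgb8 at -0.62 ± 0.26 (adjusted p = 0.613). Without cKO-1, Penk (-3.68) and Areg (1.00) passed, and without cKO-2, Itgb8 (-1.11) and Il10 (-0.92) passed. Libraries of the genotypes did not overlap for Il2ra, Ikzf2, Ccr8 and Penk (4 of 9), against 37.2% of all genes.

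The difference between the genotype effects in Foxp3-positive and Foxp3-zero Cd8-negative T cells was tested as an interaction, and 0 of 9 members passed, where edgeR called 0.00979% of 10219 genes. Unadjusted, 2 of the 9, Ikzf2 and Il2ra, and 5.92% of all genes were under 0.05. Ikzf2 came closest by unadjusted p (log2 difference -0.33 ± 0.08, unadjusted p = 0.00126 and adjusted p = 0.338 by edgeR). It passed when the Foxp3-zero cells of the Treg-like cluster were left out (-0.78, adjusted p = 0.00464). In that setting Ikzf2 was also higher in the cKO libraries among the remaining Foxp3-zero Cd8-negative T cells (0.63, adjusted p = 0.0295). Il2ra stood at 0.39 ± 0.13 (adjusted p = 0.645).

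Between genotypes 10 genes passed in Foxp3-positive cells, none a member. The 4 that rose in cKO were Cd4, the co-receptor of helper and regulatory T cells (log2 1.27 ± 0.17, edgeR adjusted p = 2.85e-05), Mmp12, a macrophage metalloproteinase (2.18 ± 0.40), Ptms (0.96 ± 0.21) and Gm17276 (3.59 ± 0.74). Among the 6 that fell, the 5 largest by fold were Gm156 (-6.25 ± 0.72), Tcrg-C2 (-3.45 ± 0.56), Gzmf (-2.75 ± 0.58), Gzma (-2.19 ± 0.45) and Ifitm1 (-2.15 ± 0.30). The other was Gzmb, a cytotoxic granule protease (-0.73 ± 0.12, adjusted p = 0.00152). The CD8 markers summed to 120 and 139 CPM in Foxp3-positive cells of the WT libraries and to 79.0 and 106 CPM in those of the cKO libraries. The NK markers, a list that holds Gzma, summed to 60.7 and 199 CPM in WT, where WT-2 stood apart, and to 40.8 and 47.5 CPM in cKO. The part of such cells in these genes was not tested. With cells holding a Cd8 UMI left out, 1 gene was called, Cd4 (1.15, adjusted p = 0.00634), while Gzmb (-0.75), Ptms (1.10), Gm17276 (3.60) and Mmp12 (1.61) kept their sign without passing, Gzma was at -0.69 and Ifitm1 at 0.02. With doublets kept, Ifitm1 was at -0.23 and Gzma at -0.24.

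Single libraries moved several of these genes. With the call lost, Gzmf stood at 0.33 without WT-1, Gzma at -0.16 and Tcrg-C2 at -2.41 without WT-2, and Mmp12 at 0.98 without cKO-1. Ptms and Gm17276 also lost their calls without WT-1 and without either cKO library, and so did Gzmb without either cKO library (-0.73 and -0.75). Gm17276 passed at 7.16 without WT-2. No gene of the 4 lists passed in any genotype comparison by edgeR.

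In Foxp3-zero Cd8-negative T cells 36 genes passed, 18 in each direction. The largest that rose were Spry2 (log2 1.31 ± 0.23), Dusp2 (1.30 ± 0.14), Klrb1a (1.30 ± 0.22), Cables1 (1.28 ± 0.26) and Tcrg-C4 (0.97 ± 0.18), and Cd4 rose as well (0.88 ± 0.13). The largest that fell were Dok6 (-4.84 ± 0.81), Ccdc184 (-3.44 ± 0.67), Epha3 (-2.63 ± 0.46), Exo1 (-1.89 ± 0.37) and Ppp1r14c (-1.54 ± 0.31). Dusp2, a phosphatase induced on activation, was the 1 gene that passed in all Foxp3-zero T cells (0.97 ± 0.10).

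The share of T cells with a Foxp3 UMI, each cell thinned to 3000 UMIs, was 7.63% in WT-1 (95% Wilson interval 6.22 to 9.33), 8.36% in WT-2 (7.04 to 9.90), 9.29% in cKO-1 (7.54 to 11.4) and 9.64% in cKO-2 (7.92 to 11.7). The genotypes did not overlap (8.00 ± 0.52% in WT and 9.46 ± 0.25% in cKO, SD, n = 2 each), and the exact permutation test, two-sided, gave p = 0.333, the smallest that 2 against 2 libraries allow. Unthinned shares were 10.9%, 10.95%, 11.8% and 13.1%. With at least 2 Foxp3 UMIs the difference fell to 0.118 percentage points, and with the Treg-like cluster in place of the Foxp3 gate it was 0.375. Intervals cover counting error only.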

How the data were processed

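Single-cell RNA-seq libraries of CD45+ tumour cells were made with a Chromium 3' kit, per the labels' protocols. The authors deposited raw UMI counts per gene and barcode; the submitters' processing notes name Cell Ranger, STAR and mm10, with versions not given in the sources used here. The filter on cells required 300 genes and 500 UMIs and allowed a mitochondrial share of 15%. For doublets, the threshold that Scrublet chose by itself found 1 cell in all and was not used. Instead, a Scrublet score over 0.2 set a cell apart, as did membership of a cluster with mixed markers. Cells were clustered with scanpy 1.11.5 (2000 variable genes, 30 components, 15 neighbours, Leiden resolution 1), with the members, Trim25, Vsir and Cd4 left out of the genes used. Clusters were named from marker lists. T cells came from T-cell clusters and were split by at least 1 Foxp3 UMI. For each class the counts of a library were summed, and the sums were tested with edgeR 4.0.16 (filterByExpr, TMM, quasi-likelihood test, Benjamini-Hochberg over all genes, threshold 0.05). Class comparisons had the library as a term; genotype comparisons had none, and the interaction was fitted over both classes with the library as a term. Two-sided tests were used throughout. DESeq2 1.42.0 was an alternative. The scripts were tested on simulated data.

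Coordinates are from GENCODE (GRCm38, the build of mm10). Total depth was 96751399 to 127449324 UMIs per library, and CPM were computed from the summed counts. Between libraries, summed counts differed by more than sampling noise. Replicate numbers did not pair the libraries. Every member was named; of the other genes, list genes that passed, the 10 largest folds between classes with 1 sign in all libraries, up to 5 in each direction between genotypes and the 3 most similar patterns for each member were named, and genes outside this rule (Gzmb, Cd4 in Foxp3-zero Cd8-negative cells, and list genes that did not pass) were chosen after their values were seen. One gene of the resting Treg list is not reported here. The members and lists were chosen with earlier results of these data known. Alternatives were another Foxp3 threshold, T-cell gate, doublet handling, thinning, filter, scaling, tool, replicate block, leaving out each library and, added after seeing the data, the Treg-like cluster as gate and its Foxp3-zero cells left out.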

Additional observations from a re-analysis of the deposited data

Results flagged for a closer look

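Gzmb, the granzyme B gene, had a genotype effect that differed between Foxp3-positive and Foxp3-zero Cd8-negative T cells, by -0.87 ± 0.11 on the log2 scale (edgeR interaction, adjusted p = 0.0063), and was the 1 gene of 10219 that passed this test. The call was lost with Cd8-UMI cells left out, where the difference was -0.87 (adjusted p = 0.189), and with the Cd3 gate (-0.59, adjusted p = 0.155). In Foxp3-positive cells Gzmb stood at 3778 and 3799 CPM in the WT libraries and at 2236 and 2292 CPM in the cKO libraries. In Foxp3-zero Cd8-negative T cells it stood at 1316 and 967 CPM in WT and at 1185 and 1235.5 CPM in cKO.

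Droplets with markers of several cell types, which were kept out of all comparisons, held 1003 of the 3045 Foxp3 UMIs in the filtered cells (32.9%). The mean Foxp3 level there was 17.2 ± 2.22 CPM (SD, n = 4), against 331 ± 7.32 CPM in Foxp3-positive T cells, where it defined the class, and 1.34 ± 0.41 CPM in B cells.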

How the results depend on the processing

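All 9 members kept their call against all Foxp3-zero T cells in every setting tried (126 of 126 values), and against Foxp3-zero Cd8-negative T cells 123 values kept it and 2, both of Penk, did not. Cells thinned to 3000 UMIs gave 1661 genes in the first comparison and 1124 in the second, and DESeq2 1393 in the second; leaving out 1 library gave 2626 to 2734 and 1795 to 1981. Reversals here were Il10ra with doublets kept (0.12) and Nrp1 with the Cd3 gate (-0.016).

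Genotype counts were small and moved with most settings. In Foxp3-positive cells, against 10 genes, there were 2 with at least 2 Foxp3 UMIs or with thinning, 1 with the Cd3 gate or with Cd8-UMI cells left out, 3 with DESeq2 and 23 with no filter; leaving out 1 library gave 22 to 40. In Foxp3-zero T cells, against 1, there were 2 with doublets kept, 15 with thinning, 32 with DESeq2, 235 with no filter and 10 to 186 without 1 library. In Foxp3-zero Cd8-negative T cells, against 36, there were 8 with doublets kept, 4 with thinning, 192 with no filter and 1 to 114 without 1 library. For the interaction, against 1, there were 4 with the Cd3 gate or thinning, 0 with Cd8-UMI cells left out, 2 with the Foxp3-zero cells of the Treg-like cluster left out, 8 with that cluster as gate, 3 with DESeq2 size factors, 51 with no filter and 2 to 10 without 1 library. The causes were not tested.

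The replicate numbers did not pair the libraries (correlations of same-numbered deviations 0.099, 0.066 and -0.014). With the replicate block the counts were 21 in Foxp3-positive, 92 in Foxp3-zero and 84 in Foxp3-zero Cd8-negative T cells and 70 for the interaction. Penk passed with it in Foxp3-positive (-0.91) and Foxp3-zero T cells (-1.72), Il2ra in Foxp3-zero Cd8-negative T cells (-0.57) and Ikzf2 in the interaction (-0.33), and Il10 changed sign in Foxp3-zero Cd8-negative T cells (-0.080).

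Signs of members that had not passed also turned. In Foxp3-positive cells they were Foxp3 (0.088 with the Cd3 gate, 0.13 with the cluster as gate), Il2ra (4.41e-05 with Cd8-UMI cells left out), Ikzf4 (-0.035 with the Cd3 gate, -0.061 with the cluster) and Ccr8 (-0.16 with the Cd3 gate); Ifitm1, which had passed, was at 0.024 with Cd8-UMI cells left out. In Foxp3-zero T cells thinning gave Ikzf2 -0.024 and Il1rl1 0.45. In Foxp3-zero Cd8-negative T cells they were Ikzf2 (-0.074 with doublets kept, -0.018 thinned), Itgb8 (0.28 with the Treg-like cluster's Foxp3-zero cells left out, 0.26 with the cluster as gate), Areg (-0.44, Cd3 gate), Il1rl1 (-0.01, doublets kept) and Il10 (-0.27, -0.25, -0.21, -0.30 and -0.14 with the Cd3 gate, doublets kept, thinning, those cells left out and the cluster as gate). In the interaction they were Il2ra (-0.14, cluster as gate), Itgb8 (-0.069 and -0.17 with those 2 settings), Areg (-0.24 with 2 UMIs, -0.63 thinned), Ikzf4 (-0.0041) and Ccr8 (-0.079).

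Leaving out 1 library leaves 1 in its genotype, so the spread comes from the other pair. Signs then turned in Foxp3-positive cells for Ikzf4 (-0.040 to 0.064), Ccr8 (-0.41 to 0.75), Il10 (-1.01 to 0.10) and Gzmf (-3.75 to 0.33), the last of these without WT-1. They turned in Foxp3-zero T cells for Areg (-0.11 to 1.00), Il1rl1 (-0.55 to 0.17) and Il10 (-0.92 to 0.46), and in Foxp3-zero Cd8-negative T cells for Itgb8 (-1.15 to 0.13), Areg (-0.65 to 0.94), Il1rl1 (-0.33 to 0.69) and Il10 (-1.55 to 0.90). In the interaction they turned for Areg (-0.77 to 1.53), Ccr8 (-0.32 to 1.37), Penk (-1.08 to 3.03) and Il10 (-0.80 to 0.54). The Foxp3-positive share differed by 1.10 to 1.83 percentage points without 1 library, by 2.51 with the Cd3 gate, 2.64 over Cd8-zero T cells, 0.118 with 2 UMIs and 0.375 with the cluster as gate. Depth limits Ccr8 most, with 94 UMIs in Foxp3-positive cells.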
